A study of Mus musculus with 12 samples.

Results

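The genes described here carry glucose into the cell, break it down to pyruvate and pass the pyruvate to lactate or into mitochondria. The list has 36 mouse genes. For 31 of them the arrays held a probe set that carries their symbol and no other. The probe set with the highest mean over the 12 arrays stood for a gene with several. Aldoa, Eno1, Gpi1, Mpc2 and Pfkfb1 had no such probe set and were not analysed here. All tests were fitted to the 23521 probe sets of the series with a single gene symbol, out of 41345 in the table.

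Expression was measured in brown adipose tissue of 12 mice, with 1 array per mouse and 3 arrays in each of 4 groups. The groups were adipocyte-specific Sel1L knockouts at 4 °C, the same knockouts at room temperature, controls at 4 °C and controls at room temperature, and every mouse had been fasted for 5 h. The knockouts came from Sel1L f/f mice crossed with an Adiponectin-Cre line (B6.FVB-Tg(Adipoq-cre)1Evdr/J), and the controls were Sel1L f/f littermates, both on the C57BL/6J background. The controls are called wildtype in the titles and carry the floxed alleles per the genotype field, without Cre. Adiponectin-Cre acts in adipocytes, so other cells of the tissue kept the gene, and age and sex were not given in the sources used here. Sel1L works with the ubiquitin ligase Hrd1 to clear misfolded proteins out of the endoplasmic reticulum. The series asks how this pathway acts during heat production, and the design sets the genotypes against each other at each temperature and the 2 temperatures against each other in each genotype. The labels do not say which mice were littermates of which or how mice were assigned to a temperature, and each p-value reflects only the variation among these arrays. The design text speaks of brown adipocytes, and the sample labels of snap-frozen tissue.

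Brown fat burns both fatty acids and glucose to make heat, and its glucose uptake rises in the cold. Glucose enters through GLUT transporters and is trapped by hexokinases. Phosphofructokinase commits it to glycolysis under the control of the bifunctional PFKFB enzymes, which make and remove its activator fructose 2,6-bisphosphate. Pyruvate then becomes lactate, which leaves or enters through monocarboxylate transporters, or it passes the mitochondrial pyruvate carrier to the pyruvate dehydrogenase complex. The PDK kinases switch that complex off and the PDP phosphatases switch it on.

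Some arrays limit what follows. Sel1l, the deleted gene, was lower in the arrays labelled knockout at room temperature (5.92 to 6.18, against 6.96 to 7.37 in controls), whereas at 4 °C the groups overlapped (6.54 to 6.90 in the arrays labelled knockout, against 6.69 to 7.04 in controls). The genotype difference at 4 °C was -0.19 (adjusted p = 0.605, limma), so the Sel1l reading did not bear out the knockout label there, and probe positions within the gene were not used here. Within the arrays labelled knockout, Sel1l was higher at 4 °C than at room temperature (0.66, adjusted p = 0.0124), a call lost without replicate 3 of those at room temperature (0.0524) or replicate 1 of those at 4 °C (0.0603). Replicate 3 of the controls at room temperature is labelled room temperature in its title and temperature field and 4 °C in its source name, and it was analysed as room temperature. Of 11 brown adipocyte markers, Ucp1 (12.38 to 12.83) and Cidea (11.59 to 11.89) read near the top of the scale, which reached 13.02, in all 12 arrays, and 2 others were called lower in the arrays labelled knockout at 4 °C than in controls at 4 °C. These were the coactivator gene Ppargc1a (-1.42, adjusted p = 0.00473) and Pparg (-0.78, adjusted p = 0.0144), the second lost without replicate 1 (0.0662) or 2 (0.0608) of the controls or replicate 3 of the arrays labelled knockout (0.0689). In the cold, Ppargc1a and Dio2 rose in both genotypes, and Elovl3 in controls. The mean of the 11 was 10.54 to 10.57 in the arrays labelled knockout at 4 °C, 10.13 to 10.35 in those labelled knockout at room temperature, 10.79 to 10.89 in controls at 4 °C and 9.96 to 10.24 in controls at room temperature, and its part in the results was not tested. The mean of 20 skeletal muscle markers, the muscle score, ran from 2.34 to 6.34 in the arrays labelled knockout at 4 °C, from 2.57 to 5.97 in those labelled knockout at room temperature, from 4.44 to 7.63 in controls at 4 °C and from 6.05 to 6.98 in controls at room temperature. None of the 20 muscle markers was called in any comparison by limma, and Acta1, a muscle actin, ran from 3.50 to 10.39 over the arrays. In whole tissue, fewer cells of a type and less RNA per cell cannot be told apart.

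All values are log2 expression as deposited, and a difference is the mean of the first-named group minus the mean of the second, with the standard error (SE) of the fit and n = 3 arrays per group. A gene was called when its adjusted p from limma was under 0.05 (Benjamini-Hochberg over all probe sets tested). In the arrays labelled knockout at 4 °C against controls at 4 °C, 1 of the 31 genes was higher and 3 were lower, or 3.23% and 9.68%, where 3.61% and 2.19% of all probe sets were called. At room temperature, the arrays labelled knockout had 1 gene higher and 0 lower (3.23% and 0%), where 1.29% and 0.429% of all probe sets were called. For 4 °C against room temperature, 1 rose and 2 fell in the arrays labelled knockout (3.23% and 6.45%), where 4.32% and 4.70% of all probe sets were called. In controls, 6 rose and 2 fell (19.4% and 6.45%), where 4.85% and 6.23% of all probe sets were called. The shares that rose in the cold in controls and that were lower in the arrays labelled knockout at 4 °C both lie above their backgrounds, and the shares in the cold response of the arrays labelled knockout lie near theirs. All 31 genes lay above the median brightness of the table. Of the 12621 probe sets that did, 6.62% were higher and 3.98% lower between genotypes at 4 °C. At room temperature, 2.37% of them were higher and 0.784% lower. For the cold response of controls, 8.68% of these bright probe sets rose and 11.3% fell. For that of the arrays labelled knockout, 7.84% rose and 8.47% fell. Beside the bright probe sets, the excess of genes that rose in the cold in controls was thus smaller. The same held for the share higher between genotypes at room temperature and for the excess of lower genes at 4 °C. That last excess rested on 3 genes, of which Hk2 lost its call in 15 of 21 alternative settings. The interaction, which is the cold response in the arrays labelled knockout minus that in controls, was called for 0 of the 31 genes, against 0.230% of all probe sets higher and 0.0765% lower. 6 of the 31 had an unadjusted interaction p under 0.05. The share of all probe sets under that level is not given here, so this count has no background to be read against. With a trended and robust prior, limma called the interaction for 1 of the 31 genes and for 98 of all probe sets. The median difference of the 31 genes was -0.17 between genotypes at 4 °C, -0.05 between genotypes at room temperature, -0.04 for cold in the arrays labelled knockout and 0.03 for cold in controls, beside a median of -0.01 over all probe sets in each of these. No test was made of the list as a whole.

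**Figure D1:**
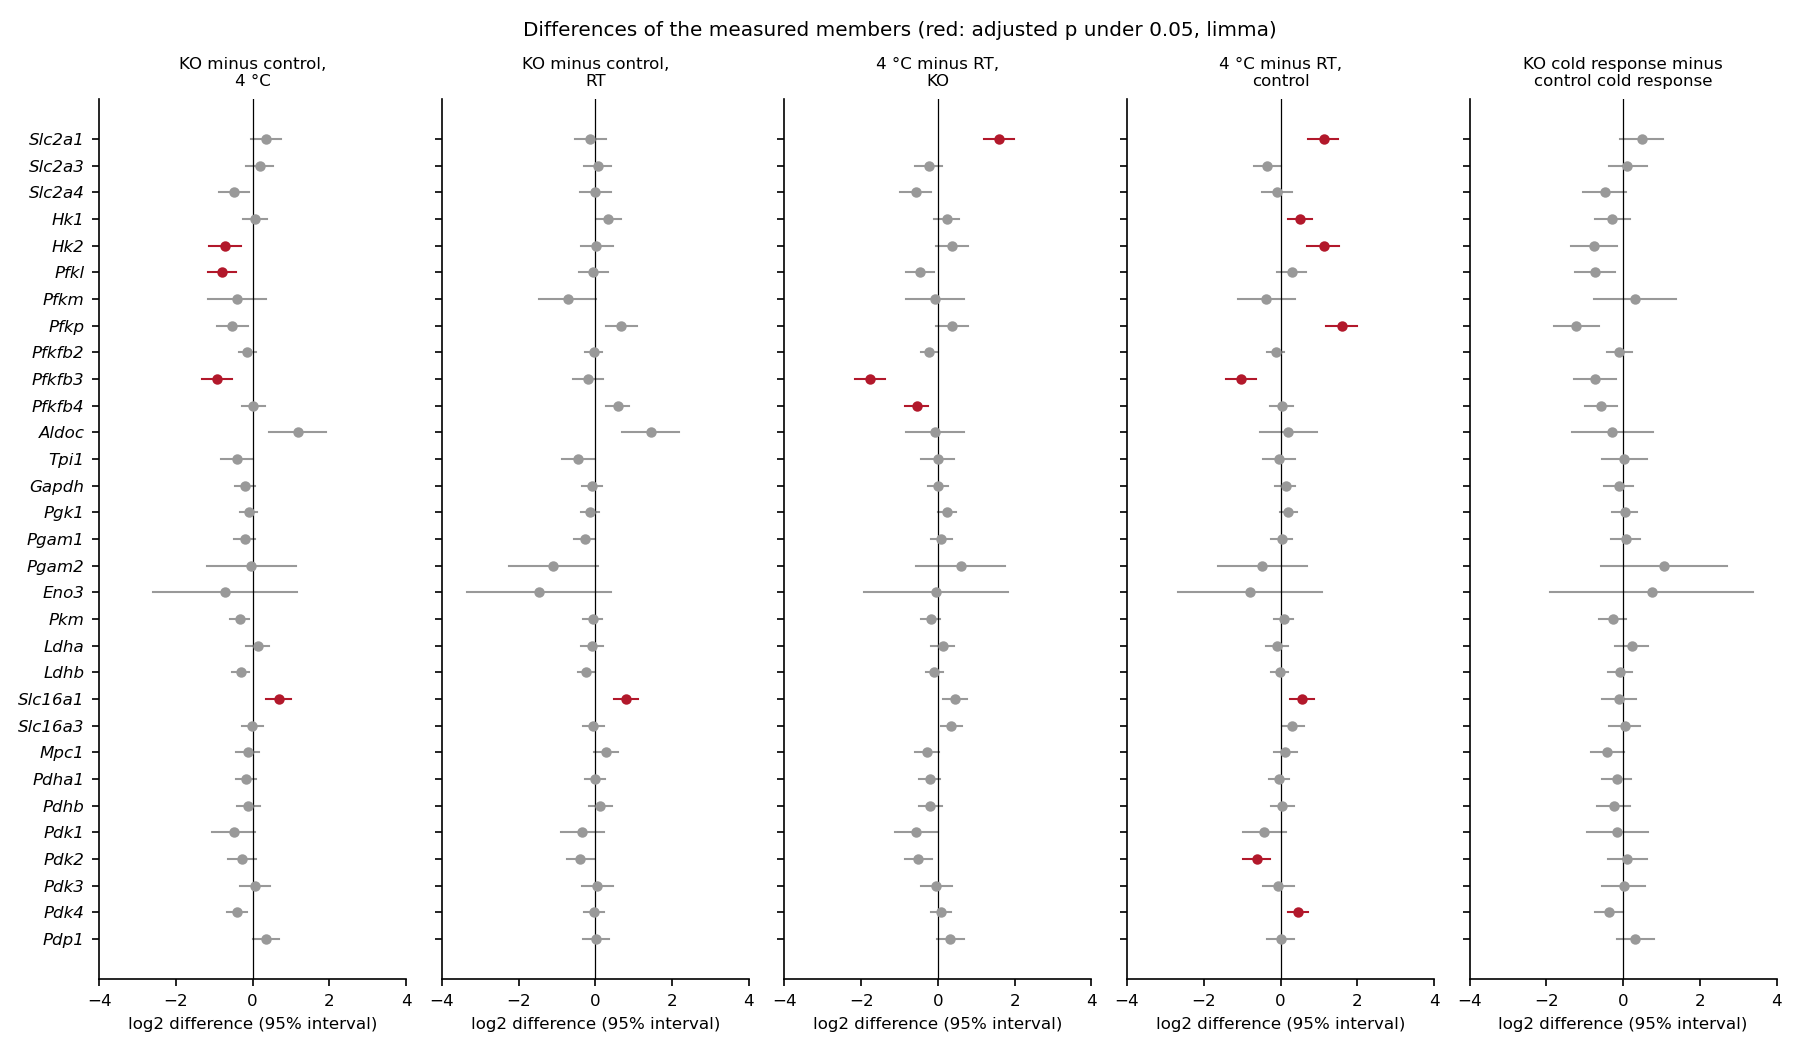
Log2 difference of each of the 31 measured genes (rows) with its 95% interval, for arrays labelled knockout (KO) minus controls at 4 °C and at room temperature (RT), 4 °C minus room temperature in arrays labelled knockout and in controls, and the difference between the 2 cold responses. Red marks an adjusted p under 0.05 (limma). Pfkfb3 is red in 3 panels, most calls fall at uptake, trapping and the phosphofructokinase step, and the intervals of the muscle isoforms Eno3 and Pgam2 are the widest.

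The transporter gene Slc2a1 rose at 4 °C in both genotypes, and the insulin-regulated transporter gene Slc2a4 did not pass in any comparison. Slc2a1 encodes GLUT1, the transporter of basal glucose uptake. It read 7.40, 7.21 and 7.13 in the arrays labelled knockout at 4 °C, against 5.96, 5.51 and 5.48 in those labelled knockout at room temperature. Controls read 7.19, 6.73 and 6.77 at 4 °C, against 5.72, 5.52 and 6.09 at room temperature. Every array at 4 °C lay above every array at room temperature, in both genotypes. The rise was 3.03-fold in the arrays labelled knockout (log2 difference 1.60 ± 0.18 SE, adjusted p = 0.000312, limma) and 2.17-fold in controls (1.12 ± 0.18, adjusted p = 0.00209). The 2 rises differed by 0.48 (95% interval -0.08 to 1.04), which did not pass (adjusted p = 0.601). Between genotypes Slc2a1 differed by 0.35 ± 0.18 at 4 °C and by -0.13 ± 0.18 at room temperature, neither called. A second Slc2a1 probe set, with a mean of 1.88 and thus below the array medians of 2.03 to 2.09, differed by 0.09 and 0.16 in the same cold comparisons and was not called.

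Slc2a4 encodes GLUT4, the transporter that insulin brings to the surface of fat and muscle cells. It read 7.64, 8.11 and 8.20 in the arrays labelled knockout at 4 °C, against 8.47, 8.74 and 8.49 in those labelled knockout at room temperature. These groups did not overlap, yet the difference of -0.58 ± 0.18 did not pass (adjusted p = 0.0669, limma). It passed when the muscle score was added to the fit (-0.64, adjusted p = 0.0417), without replicate 2 of the controls at 4 °C (adjusted p = 0.0364), when only probe sets above the median brightness were tested, after a second quantile normalization and with the trended prior. In controls the cold difference of Slc2a4 was -0.10 ± 0.18, from 8.59, 8.10 and 8.70 at 4 °C and 8.73, 8.42 and 8.54 at room temperature. Slc2a3, the gene of GLUT3, ran from 2.66 to 3.45 over the arrays and was not called.

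Both measured hexokinase genes rose in the cold in controls. Hexokinases add the phosphate that traps glucose in the cell. Hk2, the isoform of insulin-responsive tissues, read 8.68, 8.77 and 8.69 in the arrays labelled knockout at 4 °C and 8.54, 8.25 and 8.28 in those labelled knockout at room temperature. Controls read 9.86, 9.39 and 9.06 at 4 °C, against 8.30, 8.03 and 8.64 at room temperature. The controls at 4 °C stood apart above the other 3 groups. Hk2 rose 2.17-fold in the cold in controls (1.12 ± 0.19, adjusted p = 0.00287, limma), and its cold difference in the arrays labelled knockout was 0.36 ± 0.19 (adjusted p = 0.337). The difference between these responses was -0.76 (95% interval -1.35 to -0.17) and did not pass (adjusted p = 0.362).

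At 4 °C Hk2 was 1.65-fold lower in the arrays labelled knockout than in controls (-0.72 ± 0.19, adjusted p = 0.0463). This call stood close to the threshold. It was lost without any of 9 of the 12 arrays, with adjusted p up to 0.171 without replicate 1 of the controls at 4 °C, and when the muscle score entered the fit (-0.72, adjusted p = 0.072). It was also lost when the array with conflicting labels was counted among the controls at 4 °C (adjusted p = 0.265). Hk2 is also expressed in skeletal muscle. Hk1, the widely expressed hexokinase, read 5.49, 5.77 and 5.43 in the arrays labelled knockout at 4 °C and 5.62, 5.32 and 5.08 in those labelled knockout at room temperature. In controls it read 5.61, 5.52 and 5.38 at 4 °C, against 5.11, 4.86 and 5.02 at room temperature. It rose 1.42-fold in the cold in controls (0.51 ± 0.15, adjusted p = 0.0433), and this call was lost without any of 8 arrays (adjusted p up to 0.146, without replicate 2 of the controls at room temperature).

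Phosphofructokinase, the committed step, has a liver, a muscle and a platelet subunit, encoded by Pfkl, Pfkm and Pfkp. Pfkp showed the largest cold rise in controls among the 31 genes. It read 8.92, 8.63 and 8.83 in the arrays labelled knockout at 4 °C and 8.50, 8.55 and 8.21 in those labelled knockout at room temperature. In controls it read 9.65, 9.23 and 9.09 at 4 °C, against 7.73, 7.37 and 8.11 at room temperature. The arrays labelled knockout thus lay between the control groups, below all controls at 4 °C and above all controls at room temperature. The rise in controls was 3.01-fold (1.59 ± 0.19, adjusted p = 0.000342, limma), and in the arrays labelled knockout the cold difference was 0.37 ± 0.19 (adjusted p = 0.303). Between genotypes Pfkp differed by -0.53 ± 0.19 at 4 °C (adjusted p = 0.151) and by 0.68 ± 0.19 at room temperature (adjusted p = 0.108). The last passed (0.87, adjusted p = 0.049) once the array with conflicting labels was left out. The cold responses of Pfkp differed by -1.22 (95% interval -1.80 to -0.63, unadjusted p = 0.000644, adjusted p = 0.0953), which did not pass.

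Pfkl differed between the genotypes at 4 °C. It read 8.04, 8.53 and 8.77 in the arrays labelled knockout at 4 °C, against 9.35, 9.03 and 9.33 in controls at 4 °C. At room temperature the groups overlapped, with 8.96, 8.86 and 8.88 in the arrays labelled knockout and 8.99, 8.76 and 9.10 in controls. Pfkl was 1.73-fold lower in the arrays labelled knockout at 4 °C (-0.79 ± 0.17, adjusted p = 0.0149, limma), a call lost without replicate 1 of the controls at 4 °C (adjusted p = 0.0664). The spread within the arrays labelled knockout at 4 °C was wide, and replicate 1, the lowest, also had the lowest muscle score of the study at 2.34. Once the muscle score entered the fit, the difference was -0.70 (adjusted p = 0.0179). Its cold differences were -0.46 ± 0.17 in the arrays labelled knockout and 0.29 ± 0.17 in controls, neither called, and the first passed without replicate 3 of the arrays labelled knockout at 4 °C (-0.62, adjusted p = 0.0497) and once the muscle score entered the fit (-0.52, adjusted p = 0.0481). The difference between them was -0.74 (95% interval -1.26 to -0.22, adjusted p = 0.285).

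**Figure D2:**
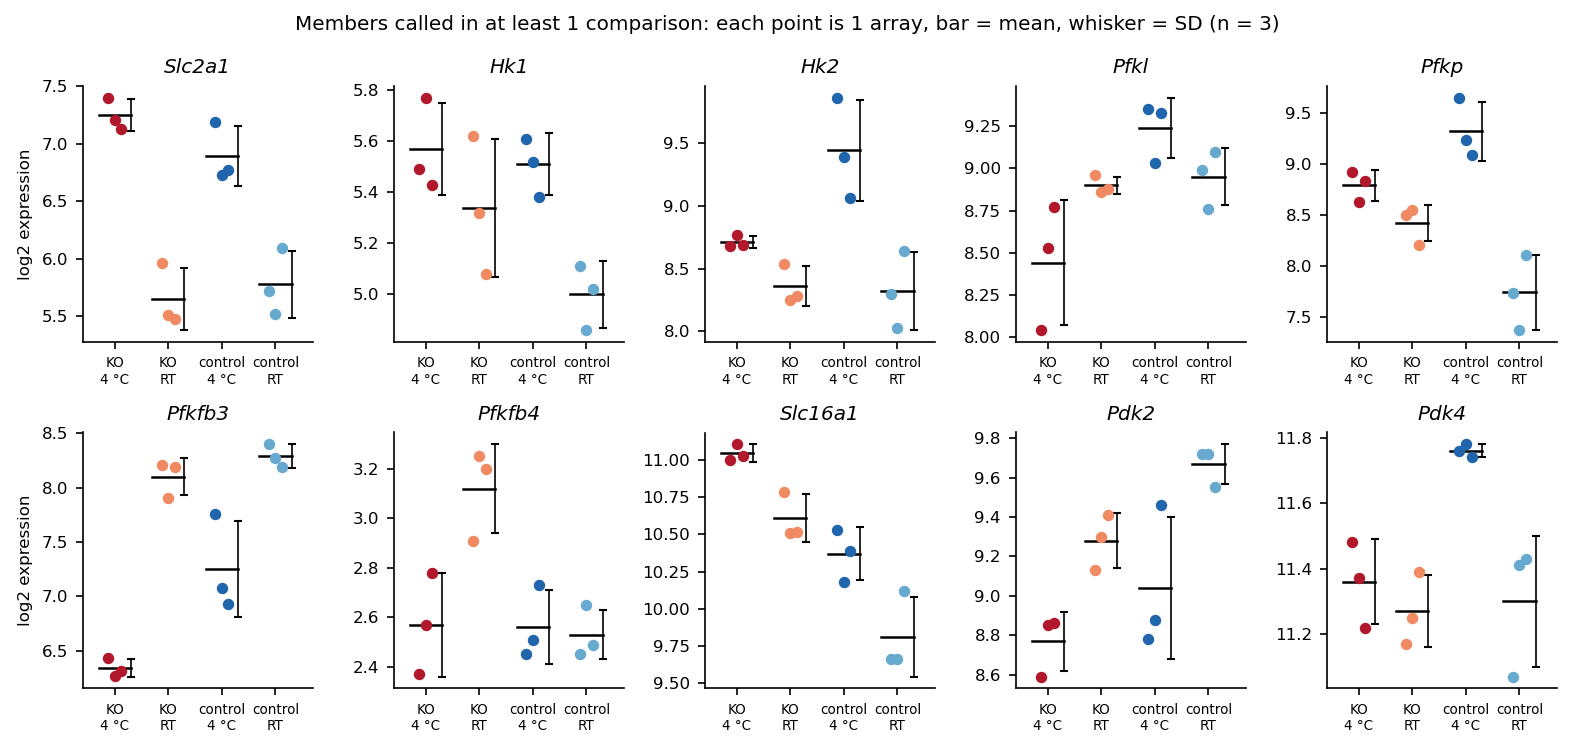
Log2 expression of the 10 genes called in at least 1 comparison, 1 point per array, with the mean (bar) and SD (whisker) of the 3 arrays labelled knockout at 4 °C and at room temperature and of the 3 controls at 4 °C and at room temperature. The vertical scales differ between panels and do not start at 0. Slc2a1 is high at 4 °C in both genotypes, Pfkfb3 is lowest in the arrays labelled knockout at 4 °C (6.27 to 6.43), and Hk2 and Pfkp are highest in controls at 4 °C.

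Pfkfb3 fell in the cold in both genotypes and was lowest in the arrays labelled knockout at 4 °C. It encodes the PFKFB isoform whose kinase activity outweighs its phosphatase activity, and so favours glycolysis. It read 6.43, 6.27 and 6.31 in the arrays labelled knockout at 4 °C, against 8.21, 7.90 and 8.19 in those labelled knockout at room temperature. In controls it read 7.76, 7.08 and 6.93 at 4 °C, against 8.40, 8.27 and 8.19 at room temperature. No array at 4 °C reached the room temperature range of its genotype, and at 4 °C the genotypes did not overlap. The fall was 3.4-fold in the arrays labelled knockout (-1.77 ± 0.18, adjusted p = 0.000142, limma) and 2.05-fold in controls (-1.03 ± 0.18, adjusted p = 0.00311). At 4 °C Pfkfb3 was 1.89-fold lower in the arrays labelled knockout than in controls, and this difference and its fall in the arrays labelled knockout kept their calls in every alternative tried. The 2 falls differed by -0.73 (95% interval -1.29 to -0.18), which did not pass (adjusted p = 0.338), and at room temperature the genotypes differed by -0.19 ± 0.18.

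Pfkfb4, another isoform of the same enzyme, read low. Its values were 2.37, 2.57 and 2.78 in the arrays labelled knockout at 4 °C, against 2.91, 3.25 and 3.20 in those labelled knockout at room temperature. In controls it read 2.45, 2.51 and 2.73 at 4 °C, against 2.45, 2.65 and 2.49 at room temperature. The arrays labelled knockout at room temperature stood alone above the other 3 groups. Pfkfb4 fell in the cold in the arrays labelled knockout (-0.55 ± 0.14, adjusted p = 0.025, limma), a call lost without replicate 2 (adjusted p = 0.101) or 3 (0.0831) of the arrays labelled knockout at room temperature, or replicate 1 (0.109) or 2 (0.077) of those at 4 °C. At room temperature the difference between genotypes was 0.59 ± 0.14 (adjusted p = 0.0512). That difference passed without replicate 1 of the arrays labelled knockout at room temperature (0.70, adjusted p = 0.0377), without replicate 1 (0.0495) or 3 (0.0484) of those at 4 °C, or without replicate 3 of the controls at 4 °C (0.0462). It also passed with the replicate number as a block (0.0329), with the brightness filter (0.0436) and with each array centred on its median (0.0497). Pfkfb2 ran from 4.40 to 4.78 over the arrays and was not called.

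The promoters of Slc2a1, Hk2, Pfkp, Pfkfb3 and Slc16a1 are shown as a selection from the called genes of the pathway. Those of the other called genes, Hk1, Pfkl, Pfkfb4, Pdk2 and Pdk4, are not shown. Each is the 250 bases before a RefSeq start site on GRCm38.p6, 5′ to 3′ along the gene, and for Pfkfb3 the first-listed of 2 start sites. Capitals mark 2 short motifs on either strand, TGACG, the core of the cAMP response element through which adrenergic signalling acts, and ACGTG, the core of hypoxia and E-box elements.
Slc2a1, chr4:119108495-119108744, plus strand: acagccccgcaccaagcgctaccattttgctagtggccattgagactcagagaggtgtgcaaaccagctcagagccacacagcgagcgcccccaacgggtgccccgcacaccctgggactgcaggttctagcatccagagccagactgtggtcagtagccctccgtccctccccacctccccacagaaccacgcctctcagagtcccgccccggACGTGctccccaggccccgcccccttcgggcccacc
Hk2, chr6:82774455-82774704, minus strand: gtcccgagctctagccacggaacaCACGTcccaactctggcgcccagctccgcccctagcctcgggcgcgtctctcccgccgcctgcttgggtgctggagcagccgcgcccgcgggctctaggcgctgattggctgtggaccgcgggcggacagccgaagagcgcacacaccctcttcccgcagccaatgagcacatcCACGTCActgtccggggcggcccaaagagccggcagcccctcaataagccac
Pfkp, chr13:6648772-6649021, minus strand: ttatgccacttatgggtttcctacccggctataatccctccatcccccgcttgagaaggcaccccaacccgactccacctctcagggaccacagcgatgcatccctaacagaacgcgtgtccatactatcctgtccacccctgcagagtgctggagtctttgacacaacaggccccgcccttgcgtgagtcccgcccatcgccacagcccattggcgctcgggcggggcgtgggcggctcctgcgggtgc
Pfkfb3, chr2:11553930-11554179, minus strand: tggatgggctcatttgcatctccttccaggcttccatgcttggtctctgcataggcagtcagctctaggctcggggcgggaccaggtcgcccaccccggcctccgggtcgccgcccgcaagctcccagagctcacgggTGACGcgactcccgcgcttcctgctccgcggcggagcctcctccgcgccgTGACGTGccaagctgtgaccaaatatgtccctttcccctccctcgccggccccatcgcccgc
Slc16a1, chr3:104638414-104638663, plus strand: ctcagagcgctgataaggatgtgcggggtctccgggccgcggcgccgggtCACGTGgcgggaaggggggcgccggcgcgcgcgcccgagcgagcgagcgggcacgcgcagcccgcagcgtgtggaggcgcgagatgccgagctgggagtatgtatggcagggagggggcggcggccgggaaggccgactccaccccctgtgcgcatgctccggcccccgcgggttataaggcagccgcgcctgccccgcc

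ACGTG was present in 16.6% and TGACG in 17.8% of all 32851 such windows in RefSeq. Of the 53 windows of the 33 listed genes that have any, 19 held ACGTG and 9 held TGACG, from 15 and 7 genes, and the median GC content was 60.4% in their windows against 52.4% in all. In Hk2 and Pfkfb3 the 2 motifs overlap, and in Slc16a1 the match is the E-box CACGTG, which 6.02% of all windows hold. The Pfkp window holds neither motif. The full cAMP response element TGACGTCA was found in 1 listed gene, Ldha, and in 1.55% of all windows. The amino acid response element TGATGNAAN (3.44% of all windows), the ER stress element (0.113%) and the estrogen-related receptor element TCAAGGTCA (0.387%) were found in 0 of the 33. A match is a run of letters in this window and says nothing of binding.

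The 8 measured genes of lower glycolysis, from aldolase to pyruvate kinase, had 0 calls in all 5 comparisons by limma. Gapdh, the dehydrogenase often used to scale other genes, ran from 11.50 to 12.07 over the arrays and differed by -0.20 ± 0.12 between genotypes at 4 °C, by -0.08 ± 0.12 at room temperature, and by 0.01 ± 0.12 and 0.13 ± 0.12 for cold in the arrays labelled knockout and in controls. Pgk1, phosphoglycerate kinase, ran from 10.03 to 10.62, and its largest difference was 0.24 ± 0.10 for cold in the arrays labelled knockout (adjusted p = 0.207). Tpi1, triose phosphate isomerase, differed by -0.44 ± 0.19 between genotypes at room temperature (adjusted p = 0.359). Pkm, pyruvate kinase, read 10.08, 10.25 and 10.36 in the arrays labelled knockout at 4 °C, against 10.57, 10.42 and 10.73 in controls at 4 °C. These did not overlap, and the difference of -0.34 ± 0.11 did not pass (adjusted p = 0.11), though it did with the trended prior (adjusted p = 0.0479). Pgam1, the non-muscle mutase, differed by at most 0.28 in size, between genotypes at room temperature (-0.28 ± 0.13, adjusted p = 0.365).

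Aldoc, an aldolase better known from brain, had the largest genotype differences of the lower pathway outside the muscle isoforms without passing. It read 4.12, 4.20 and 4.20 in the arrays labelled knockout at 4 °C, against 2.97, 3.09 and 2.94 in controls at 4 °C. At room temperature it read 3.84, 4.01 and 4.89 in the arrays labelled knockout, against 2.01, 2.70 and 3.69 in controls. All arrays labelled knockout lay above all controls at the same temperature. The differences were 1.17 ± 0.34 at 4 °C (adjusted p = 0.0705, limma) and 1.45 ± 0.34 at room temperature (adjusted p = 0.0553). Both turned into calls without the array with conflicting labels, the highest of the controls (adjusted p = 0.0163 at 4 °C, and 1.89 with adjusted p = 0.00538 at room temperature). The 4 °C difference also passed when only its 6 arrays were fitted (adjusted p = 0.000523), without replicate 1 of the controls at room temperature (0.0286) and without replicate 3 of the arrays labelled knockout at room temperature (0.0479). With the replicate number as a block, both passed (0.0379 at 4 °C and 0.0333 at room temperature). So did both when only probe sets above the median brightness were tested (0.0456 and 0.0385).

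Eno3, Pgam2 and Pfkm, the muscle isoforms of enolase, phosphoglycerate mutase and phosphofructokinase, varied with the muscle markers from array to array. Eno3 read 3.60, 7.04 and 6.49 in the arrays labelled knockout at 4 °C, 6.83, 5.05 and 5.38 in those labelled knockout at room temperature, 5.74, 5.37 and 8.19 in controls at 4 °C and 6.70, 7.34 and 7.64 in controls at room temperature. The muscle scores of the same arrays were 2.34, 6.34 and 5.44, then 5.97, 2.57 and 3.43, then 5.13, 4.44 and 7.63, and 6.05, 6.51 and 6.98. The array with the highest muscle score, replicate 3 of the controls at 4 °C, had the highest Eno3 and Pgam2 (4.52) and the second-highest Pfkm (6.55), and the array with the lowest score, replicate 1 of the arrays labelled knockout at 4 °C, had the lowest Eno3 and Pfkm (4.82). None of the 3 genes was called in any comparison. The genotype difference at room temperature was -1.47 ± 0.86 for Eno3, -1.09 ± 0.54 for Pgam2 and -0.72 ± 0.35 for Pfkm. Adding the muscle score to the fit gave 0.51 ± 0.26, 0.08 ± 0.27 and 0.02 ± 0.19. The score thus moved the Eno3 difference across 0.

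**Figure D3:**
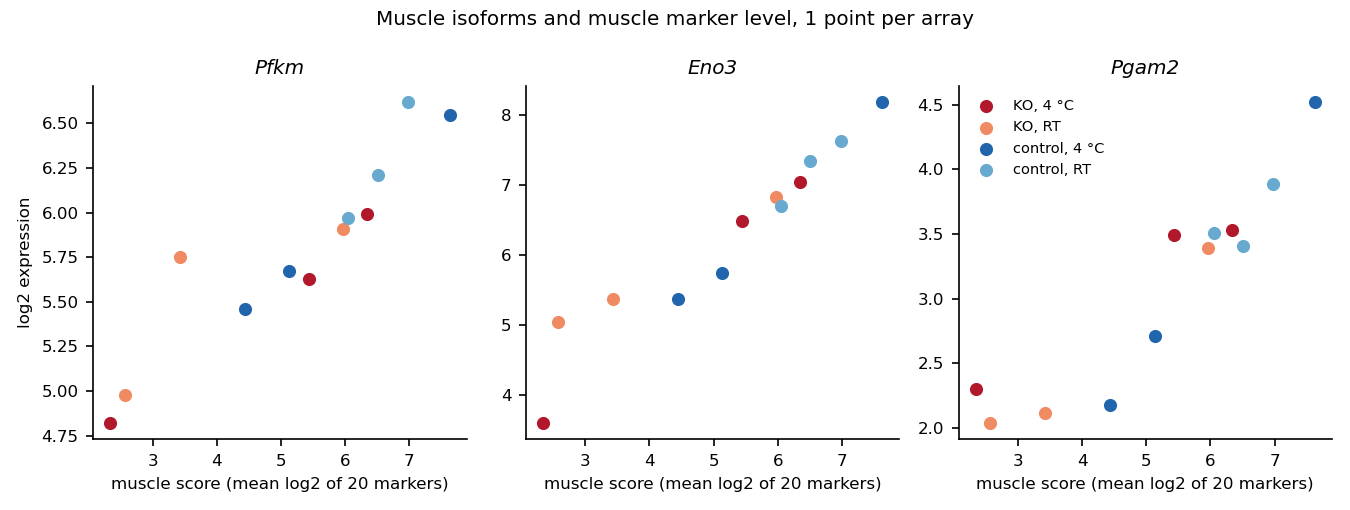
Log2 expression of Pfkm, Eno3 and Pgam2 (vertical) against the muscle score, the mean log2 value of 20 skeletal muscle markers (horizontal), with 1 point per array coloured by group. The axes do not start at 0. In all 3 panels the points climb together with the muscle score, from a score of 2.34 to 7.63, where the 3 highest scores belong to controls (6.51 to 7.63) and the 3 lowest to arrays labelled knockout (2.34 to 3.43).

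Slc16a1 was the only gene of the list called higher in the arrays labelled knockout at both temperatures. It encodes MCT1, a monocarboxylate transporter that carries lactate, pyruvate and ketone bodies. It read 11.00, 11.11 and 11.03 in the arrays labelled knockout at 4 °C, against 10.53, 10.18 and 10.39 in controls at 4 °C. At room temperature it read 10.79, 10.51 and 10.52 in the arrays labelled knockout, against 9.66, 9.66 and 10.12 in controls. The genotypes did not overlap at either temperature. Slc16a1 was 1.6-fold higher in the arrays labelled knockout at 4 °C (0.68 ± 0.14, adjusted p = 0.0149, limma) and 1.73-fold higher at room temperature (0.79 ± 0.14, adjusted p = 0.0142). The first call was lost without replicate 2 of the controls at 4 °C (adjusted p = 0.0621) or replicate 2 of the arrays labelled knockout at 4 °C (0.0638). The second was lost without replicate 1 (0.0673) or 2 (0.0689) of the controls at room temperature or replicate 1 of the arrays labelled knockout at room temperature (0.0563).

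Slc16a1 also rose in the cold in controls (0.56 ± 0.14, adjusted p = 0.0266), and its cold difference in the arrays labelled knockout was 0.44 ± 0.14 (adjusted p = 0.0853). The first was lost without replicate 1 (0.106) or 2 (0.1) of the controls at room temperature or replicate 1 (0.107) or 3 (0.0566) of the controls at 4 °C, and the second passed without replicate 3 of the controls at room temperature (adjusted p = 0.0451). The 2 cold responses differed by -0.12 (95% interval -0.56 to 0.33). Its chaperone gene Bsg, basigin, was lower in the arrays labelled knockout at 4 °C (9.54, 9.73 and 9.70, against 10.14, 9.96 and 10.32 in controls at 4 °C), by -0.48 ± 0.11 (adjusted p = 0.0221). That call was lost without replicate 1 (0.0697) or 3 (0.0732) of the controls at 4 °C or replicate 1 (0.0914) or 3 (0.0555) of the arrays labelled knockout at 4 °C. Bsg and Slc16a1 thus differed between genotypes in opposite directions at 4 °C. Ldha and Ldhb, the subunits of lactate dehydrogenase, were not called. Ldhb differed by -0.31 ± 0.10 between genotypes at 4 °C (adjusted p = 0.116), and Ldha by 0.13 ± 0.14. Slc16a3, the gene of the lactate exporter MCT4, ran from 1.83 to 2.53, around the array medians, and was not called.

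At the entry of pyruvate into mitochondria, 2 kinases of the pyruvate dehydrogenase complex moved in opposite directions in the cold in controls. Pdk4, the isoform induced by fasting, read 11.48, 11.37 and 11.22 in the arrays labelled knockout at 4 °C and 11.17, 11.25 and 11.39 in those labelled knockout at room temperature. Controls read 11.76, 11.78 and 11.74 at 4 °C, against 11.07, 11.41 and 11.43 at room temperature. It rose 1.37-fold in the cold in controls (0.46 ± 0.12, adjusted p = 0.0281, limma), a call lost without replicate 1 of the controls at room temperature (adjusted p = 0.114) or replicate 1 (0.0749) or 2 (0.0847) of the controls at 4 °C. All 3 controls at 4 °C lay above every other array. At 4 °C the genotype difference of Pdk4 was -0.40 ± 0.12 and did not pass (adjusted p = 0.0765), though it did without replicate 1 of the controls at room temperature (adjusted p = 0.0497) and with the trended prior (0.0238). The cold responses differed by -0.37 (unadjusted p = 0.0485, adjusted p = 0.506).

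Pdk2, the widely expressed isoform, read 8.59, 8.85 and 8.86 in the arrays labelled knockout at 4 °C, against 9.13, 9.30 and 9.41 in those labelled knockout at room temperature. Controls read 8.78, 8.88 and 9.46 at 4 °C, against 9.72, 9.72 and 9.55 at room temperature. Within each genotype every array at 4 °C lay below every array at room temperature. The fall was called in controls (-0.62 ± 0.16, adjusted p = 0.0275) and not in the arrays labelled knockout (-0.51 ± 0.16, adjusted p = 0.0773), and the difference of 0.11 between them was not called (adjusted p = 0.927). The control call was lost without replicate 1 (adjusted p = 0.0875) or 2 (0.0844) of the controls at room temperature or replicate 1 (0.115) or 2 (0.11) of the controls at 4 °C, and the other difference passed without replicate 3 of the controls at 4 °C (0.0171). Replicate 3 of the controls at 4 °C, the highest Pdk2 of its group, was also the array with the highest muscle score. After the muscle score was added to the fit, the fall in controls was -0.58 (adjusted p = 0.0401). Pdk1, Pdk3 and Pdp1 were not called, and neither were the carrier gene Mpc1 (10.97 to 11.61 over the arrays) and the pyruvate dehydrogenase genes Pdha1 (10.11 to 10.63) and Pdhb (10.55 to 11.02). For these 3 the largest difference between 2 groups was 0.28 in size, for Mpc1.

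Around the listed steps, 42 of 45 further genes of glucose and pyruvate handling were measured. They were chosen with earlier results of these data known, so their shares beside those of all probe sets are descriptive only. The arrays labelled knockout had 2 of them higher and 6 lower at 4 °C (4.76% and 14.3%, beside 3.61% and 2.19% of all probe sets), and 2 higher and 0 lower at room temperature (4.76% and 0%, beside 1.29% and 0.429%). In the cold, 2 rose and 3 fell in the arrays labelled knockout (4.76% and 7.14%, beside 4.32% and 4.70%), and 2 rose and 5 fell in controls (4.76% and 11.9%, beside 4.85% and 6.23%). The shares that rose in the cold lie near those of all probe sets. Their interaction was called for 0 of the 42 by limma.

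Pck2, the mitochondrial phosphoenolpyruvate carboxykinase and a known target of the amino acid stress response, was the clearest of them. It read 8.05, 7.83 and 7.96 in the arrays labelled knockout at 4 °C, against 5.84, 5.92 and 5.86 in controls at 4 °C. At room temperature it read 7.43, 8.01 and 8.07 in the arrays labelled knockout, against 5.50, 6.22 and 5.89 in controls. It was 4.21-fold higher at 4 °C (2.07 ± 0.19, adjusted p = 1.92e-05, limma) and 3.91-fold higher at room temperature (1.97 ± 0.19, adjusted p = 0.000107), in every alternative tried. Pck1, the cytosolic enzyme that feeds glycerol synthesis in fat, fell in the cold in both genotypes, by -0.43 ± 0.11 in the arrays labelled knockout (adjusted p = 0.0345) and by -0.53 ± 0.11 in controls (adjusted p = 0.00936). The first call was lost without any of 5 arrays (adjusted p up to 0.12, without replicate 3 of the arrays labelled knockout at room temperature). Trib3, a pseudokinase induced by stress, was 4.32-fold higher in the arrays labelled knockout at room temperature (5.42, 5.41 and 5.93, against 3.71, 3.13 and 3.59 in controls, adjusted p = 0.00159). That call was lost when the array with conflicting labels was counted among the controls at 4 °C (adjusted p = 0.106). Trib3 rose 3.76-fold in the cold in controls, to 5.21, 5.00 and 5.95 at 4 °C (adjusted p = 0.00121). The arrays labelled knockout read 6.85, 5.85 and 6.29 at 4 °C, where the genotype difference of 0.95 ± 0.28 did not pass (adjusted p = 0.0771).

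Outside the list, Pdhx of the pyruvate dehydrogenase complex and Pdpr of its phosphatase differed between genotypes at 4 °C. The complex subunit genes Dlat (-0.31 ± 0.10, adjusted p = 0.102, limma) and Dld (-0.15 ± 0.12, adjusted p = 0.631) were not called there. Pdhx, which holds the E3 enzyme in the complex, read 7.52, 7.60 and 7.51 in the arrays labelled knockout at 4 °C, against 8.34, 8.15 and 8.21 in controls at 4 °C (-0.69 ± 0.10, adjusted p = 0.00138). Pdpr, a regulatory subunit of the activating phosphatase, read 7.15, 7.27 and 7.06, against 7.95, 7.62 and 7.80 (-0.63 ± 0.13, adjusted p = 0.00938). Both were lower in every array labelled knockout, and both kept the call in every alternative tried. Pdp2, a catalytic subunit of that phosphatase, rose in the cold in the arrays labelled knockout (0.85 ± 0.20, adjusted p = 0.0165) and in controls (0.67 ± 0.20, adjusted p = 0.0473). The first call was lost without replicate 2 (adjusted p = 0.0546) or 3 (0.0694) of the arrays labelled knockout at room temperature or replicate 2 of those at 4 °C (0.078), and the second without any of 9 arrays (adjusted p up to 0.18, without replicate 1 of the controls at 4 °C). Pcx, pyruvate carboxylase, was lower in the arrays labelled knockout at 4 °C than in controls at 4 °C (-0.47 ± 0.12, adjusted p = 0.0441) and than in those labelled knockout at room temperature (-0.44 ± 0.12, adjusted p = 0.0461). Without single arrays those adjusted p-values reached 0.167 and 0.178, both without replicate 1 of the arrays labelled knockout at 4 °C and the second also without replicate 2 of those at room temperature, and the calls were lost without any of 10 and any of 9 arrays. In controls the cold difference of Pcx was -0.14 ± 0.12 (adjusted p = 0.609), and its interaction was not called.

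**Figure D4:**
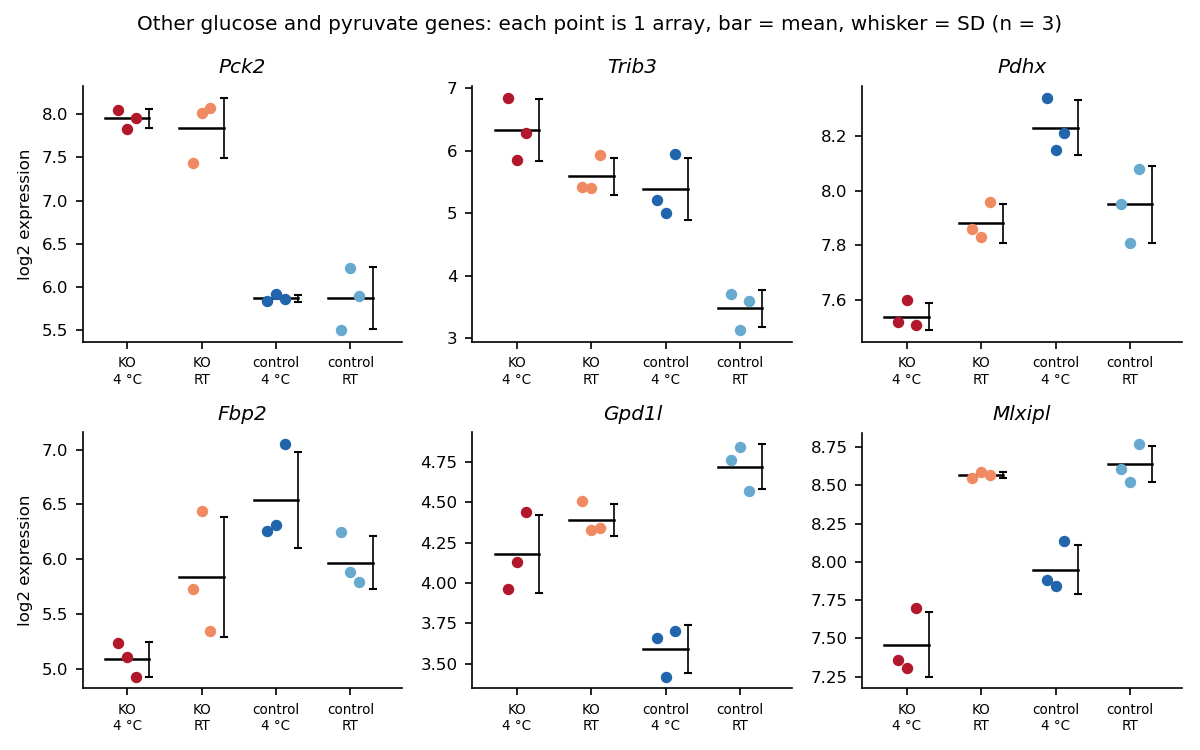
Log2 expression of 6 related genes that are not on the list, 1 point per array, with the mean (bar) and SD (whisker) of 3 arrays for the arrays labelled knockout at 4 °C and at room temperature and the controls at 4 °C and at room temperature. The vertical scales differ between panels and do not start at 0. Pck2 separates the genotypes at both temperatures, Pdhx and Fbp2 are lowest in the arrays labelled knockout at 4 °C, and Mlxipl is lower at 4 °C in both genotypes.

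Mlxipl, the gene of the glucose-sensing transcription factor ChREBP, fell in the cold in both genotypes. It read 7.36, 7.31 and 7.70 in the arrays labelled knockout at 4 °C, against 8.55, 8.59 and 8.57 in those labelled knockout at room temperature, and 7.88, 7.84 and 8.14 in controls at 4 °C, against 8.61, 8.52 and 8.77 in controls at room temperature. The falls were -1.11 ± 0.13 in the arrays labelled knockout (adjusted p = 0.00033, limma) and -0.68 ± 0.13 in controls (adjusted p = 0.0044), and they differed by -0.43 (adjusted p = 0.457). At 4 °C it was lower in the arrays labelled knockout (-0.49 ± 0.13, adjusted p = 0.0408), a call lost without any of 9 arrays (adjusted p up to 0.159, without replicate 2 of the arrays labelled knockout at 4 °C). Fbp2, the muscle isoform of fructose bisphosphatase, read 5.24, 5.11 and 4.93 in the arrays labelled knockout at 4 °C, against 6.26, 6.31 and 7.05 in controls at 4 °C (-1.45 ± 0.26, adjusted p = 0.0055). This call held in every alternative tried, the muscle score as a covariate among them. The muscle scores of these arrays were 2.34, 6.34 and 5.44 in the arrays labelled knockout at 4 °C and 5.13, 4.44 and 7.63 in controls at 4 °C. The highest Fbp2 reading stood in the array with the highest score. Within the arrays labelled knockout at 4 °C, the highest (5.24) stood in the array with the lowest score. Replicate 2 of the arrays labelled knockout at room temperature read 6.44 at a score of 2.57.

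Gpd1l, related to the glycerol phosphate dehydrogenase gene Gpd1, fell in the cold in controls (-1.13 ± 0.14, adjusted p = 0.000367) and was higher in the arrays labelled knockout at 4 °C (0.58 ± 0.14, adjusted p = 0.0254). The second call was lost without replicate 1 (adjusted p = 0.0586) or 2 (0.0963) of the controls at 4 °C or replicate 2 (0.066) or 3 (0.104) of the arrays labelled knockout at 4 °C. It was also lost when the array with conflicting labels was counted among the controls at 4 °C (adjusted p = 0.531). The cold responses of Gpd1l differed by 0.91 (95% interval 0.49 to 1.33, adjusted p = 0.0803). Slc16a7, the gene of the monocarboxylate transporter MCT2, read 6.15, 5.65 and 6.01 in controls at 4 °C, against 6.98, 7.24 and 6.78 in controls at room temperature (-1.06 ± 0.19, adjusted p = 0.00307). Galm, which interconverts sugar anomers, also fell in the cold in controls (-0.97 ± 0.27, adjusted p = 0.0337), a call lost without any of 5 arrays (adjusted p up to 0.122, without replicate 2 of the controls at 4 °C). Pgm2, a phosphoglucomutase gene, rose in the cold in the arrays labelled knockout (0.70 ± 0.14, adjusted p = 0.00858). For these genes the cold difference of the other genotype had the same sign without a call. It was -0.59 for Slc16a7 (adjusted p = 0.0715) and -0.63 for Galm (0.196) in the arrays labelled knockout. For Pgm2 it was 0.32 in controls (0.194). The interaction was called for none of them.

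The array with conflicting labels bears on every cold comparison of the controls and on the genotype comparisons at both temperatures. Among the controls at room temperature it had the highest Slc2a1 (6.09), Hk2 (8.64), Pfkp (8.11) and Slc16a1 (10.12) and the lowest Pfkfb3 (8.19). In each of these it lay on the room temperature side of all controls at 4 °C, for Slc16a1 narrowly (lowest control at 4 °C 10.18). These genes kept their control calls without this array, so their choice did not rest on it. The brown adipocyte markers that rose in the cold in controls also put it on the room temperature side. It read 8.17 for Ppargc1a (10.94 to 11.49 in controls at 4 °C), 8.60 for Dio2 (10.81 to 11.18) and 9.49 for Elovl3 (11.32 to 11.40). Which label is right was not tested. Without this array, 7 of the 8 control calls held and the call of Hk1 was lost (0.52, adjusted p = 0.0885). Counted as a 4 °C control, 0 of the 31 genes and 0 of all probe sets were called in that comparison, with Pfkp at adjusted p = 0.107, Slc2a1 at 0.108, Hk2 at 0.113 and Pfkfb3 at 0.196. Counting it so also lost genotype calls in limma, those of Hk2 (adjusted p = 0.265), Gpd1l (0.531) and Mlxipl (0.0663) at 4 °C. The call of Trib3 at room temperature was lost too (0.106). For cold in the arrays labelled knockout, the calls of Pck1 (0.193), Pcx (0.0829) and Pdp2 (0.0526) were lost.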

How the data were processed

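Whole-transcript expression arrays of brown adipose tissue from 12 mice were used, per the labels' protocols. The authors deposited log2 values, for which RMA (background correction, quantile normalization, probe set summary) is named, without a version, per the submitters' processing notes. RMA compresses differences of dim and of very bright probe sets. Values ran from 0.27 to 13.02, with array medians of 2.03 to 2.09 and 0 unmapped columns. Scanner intensities were not used here, and the number of arrays limits the precision.

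Symbols came from the platform annotation: 23521 probe sets had 1 symbol, 1814 several and 16010 none. Groups came from the titles. limma 3.58.1 in R 4.3.3 was fitted with 1 mean per group to all 12 arrays (8 residual degrees of freedom, prior 4.45) and tested on simulated data. P-values were adjusted over the 23521 probe sets of each comparison. Genes called anywhere, the muscle isoforms, and then those with the smallest p up to 20 were named, and so were called genes of the 45 related ones. The genes, lists and tests were chosen with earlier results of these data known. Alternatives were the arrays and probe sets fitted, a replicate block, scaling, prior settings, the muscle score, the array with conflicting labels and each array left out. Promoters are RefSeq, GRCm38.p6, 250 bases before the start.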

Additional observations from a re-analysis of the deposited data

Results flagged for a closer look

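Pfkp, the platelet subunit of phosphofructokinase, stood out because its genotype difference ran opposite ways at the 2 temperatures with no overlap. All arrays labelled knockout lay below all controls at 4 °C, and all arrays labelled knockout lay above all controls at room temperature. The difference between the cold responses was -1.22 on the log2 scale and did not pass in limma (adjusted p = 0.0953). Over the other settings its adjusted p ran from 0.0494 (trended and robust prior) to 0.603 (array with conflicting labels counted at 4 °C), and its size from -1.40 to -1.04. Without single arrays it did not pass in any of the 12 fits. Readings of single arrays were not tested as outliers, since groups held 3 arrays.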

How the results depend on the processing

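All 16 calls of the 31 genes kept their direction in every alternative run, and 0 reversed. All 16 stayed called with the brightness filter and with a second quantile normalization, 15 with each array centred on its median, 15 with the muscle score as a covariate, 14 with a trended and robust prior, 10 over all probe sets, 9 when only the compared groups were fitted and 7 with the array with conflicting labels among the 4 °C controls. The second probe set of Slc2a1, a dim one, lost both Slc2a1 calls. The cause of lost calls was not tested, apart from fewer arrays or more probe sets tested by construction.

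Between genotypes at room temperature, 1 gene of the list was called. This became 0 with only the compared groups, 2 with the array moved, centring or the trended prior, and 3 with the brightness filter. Leaving out single arrays gave 0 to 3. All probe sets called there numbered 404, and 245, 177 and 189 with only the compared groups, the array moved and the muscle score, and 255 to 458 without single arrays. Between genotypes at 4 °C, single arrays left out gave 2 to 5 genes and 842 to 1345 probe sets, against 4 and 1365. For cold in the arrays labelled knockout, 3 genes became 5 with a second quantile normalization, the trended prior or the muscle score, and 2 to 4 without single arrays. The 2123 probe sets became 1044 with the array moved, and 1276 to 2300 without single arrays. For cold in controls, 8 genes became 5 with only the compared groups, 4 over all probe sets and 0 with the array moved, and 4 to 8 without single arrays. The 2606 probe sets became 0 with the array moved, and 1608 to 2875 without single arrays. For the interaction, the trended prior gave 1 gene and 98 probe sets, and without single arrays there were 0 genes. Its 72 probe sets became 17 with the array moved, 22 over all probe sets, 39 with the muscle score, and 21 to 123 without single arrays. Sel1l differed by -1.24 to -1.03 at room temperature and by -0.29 to -0.09 at 4 °C without single arrays.

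The replicate numbers of the titles showed no sign of pairing the arrays. Of 18 same-numbered pairs across groups, 2 had deviations that correlated above 0.1 (range -0.18 to 0.16). Among 36 differently numbered pairs, 6 did (range -0.30 to 0.25). With the replicate block, 15 of the 16 calls held, the call of Hk2 between genotypes at 4 °C was lost (adjusted p = 0.0588), 3 genes were called between genotypes at room temperature, and the interaction called 47 probe sets.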
